A study of Homo sapiens with 5 samples.

Results

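The genes described here are those of the matrix remodelling machinery of a fibroblast: matrix metalloproteinases (MMPs) and their tissue inhibitors (TIMPs), ADAM and ADAMTS proteases, the plasminogen activators with their receptor and serpins, and the enzymes that hydroxylate and crosslink collagen. They were picked by gene symbol, 42 of the 26364 listed genes. All 42 were listed. A gene was tested where its normalized counts averaged 10 or more over the libraries, as held for 11313 genes, 40 of the 42 among them. The mRNA-seq libraries were made from growing fibroblasts of the human lung line IMR-90, 24 hr after siRNA transfection. Ctr-KD cells (2 libraries, Ctr-1 and Ctr-2) received a control siRNA directed against luciferase, which these cells do not encode. NSD2-KD cells (3 libraries) received an siRNA against the coding region of NSD2, the H3K36 methyltransferase also known as WHSC1 or MMSET, with a different siRNA in each library (NSD2-1, NSD2-2 and NSD2-3). All of the cells were of this single line, grown in serum, and each NSD2 siRNA stands for 1 library, so an effect of 1 siRNA and the chance state of 1 culture cannot be told apart.

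Fibroblasts build the interstitial matrix and also take it apart. Collagen chains are hydroxylated on proline and lysine in the endoplasmic reticulum, trimmed at their ends outside the cell and then crosslinked by lysyl oxidases, whereas MMPs, plasmin and ADAMTS proteases cut the finished matrix under the restraint of TIMPs and serpins. In senescent fibroblasts several of these proteases are known as parts of the senescence-associated secretory phenotype (SASP), among them MMP1, MMP3, PLAU and PLAT.

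The libraries held between 2473691 and 2845063 reads on genes, and the values below are normalized counts, the reads on a gene divided by the size factor of the library. A count of 3 reads, taken as the floor of detection, corresponded to between 2.76 and 3.28 normalized counts. NSD2 itself, on chromosome 4 of GRCh37 from 1873120 to 1983934 and listed as WHSC1, averaged 453 normalized counts (SD 13.8, n = 2) without the knockdown and 86.7 (SD 4.26, n = 3) with it. The fibroblast label was matched by the markers, since all 11 fibroblast markers examined were above the filter and COL1A1 had between 91004 and 106318 normalized counts, whereas no epithelial, endothelial or leukocyte marker exceeded 5.52 in any library. PTPRC and PECAM1, the defining leukocyte and endothelial markers, were at 0 in every library. Of 4 smooth muscle markers 3 were above the filter, with a summed count between 2444 and 3146, most of it from ACTA2, which cultured fibroblasts also express, and none of them was called. The summed count of 8 proliferation genes came to 53.4%, 33.1% and 37.7% of its Ctr-KD level in the NSD2-1, NSD2-2 and NSD2-3 libraries, and the part of this in the values of the matrix genes was not tested. In bulk RNA, fewer cells that make a transcript and less of it per cell cannot be told apart. The Ctr-KD libraries differed by little more than counting noise (their chi-square statistic divided by its degrees of freedom was 1.05, and 3.87 to 5.29 for every other pair), so the spread within Ctr-KD cells was much smaller than that between the siRNAs.

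No matrix remodelling gene was called in NSD2-KD cells. The comparison of the 3 NSD2-KD libraries with the 2 Ctr-KD libraries by limma, on log2(normalized count + 1) with Benjamini-Hochberg adjustment over all 11313 tested genes, gave 0 of the 40 tested members at an adjusted p under 0.05, and the smallest adjusted p was 0.224, for ADAM19. Among all tested genes 4 were higher (0.0354%) and 6 lower (0.053%), and quantile normalization turned this split into 8 higher and 6 lower. At an unadjusted p under 0.05, limma and edgeR each gave 3 members, ADAM19, PLAT and LOXL1, and DESeq2 gave ADAM19 and PLAT. All were higher in NSD2-KD cells. The 3 members make up 7.5% of those tested, against 4.19% of all tested genes that were higher at this level and 4.99% that were lower. With edgeR and DESeq2 as well, 0 members passed the adjusted threshold. A large difference could go uncalled where the siRNAs differed. Of the 8 proliferation genes limma called RRM2 alone, and MKI67, with a log2 difference of -2.05, had an adjusted p of 0.259 from limma.

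The median log2 difference of the 40 members was 0.058, with a range from -0.36 for P4HA3 to 0.54 for LOXL4, and that of all tested genes was -0.0089. In all, 25 members had a positive difference and 15 a negative one. This is 62.5% of the members, where 48.5% of all tested genes were positive. The 95% confidence interval of the difference lay within 2-fold either way for 35 of the 40 members (87.5%, against 83.1% of all tested genes) and within 1.5-fold for 20 of the 40 (against 45.0% of all tested genes). For the other members the interval did not exclude a difference of that size. All 3 NSD2-KD libraries lay above both Ctr-KD libraries for 8 members (20.0%, against 13.8% of all tested genes), namely MMP19, ADAM17, ADAM19, PLAT, SERPINE2, LOXL1, LOXL4 and PLOD3, and below both for P4HA3 alone (2.5%, against 13.9%).

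**Figure D1:**
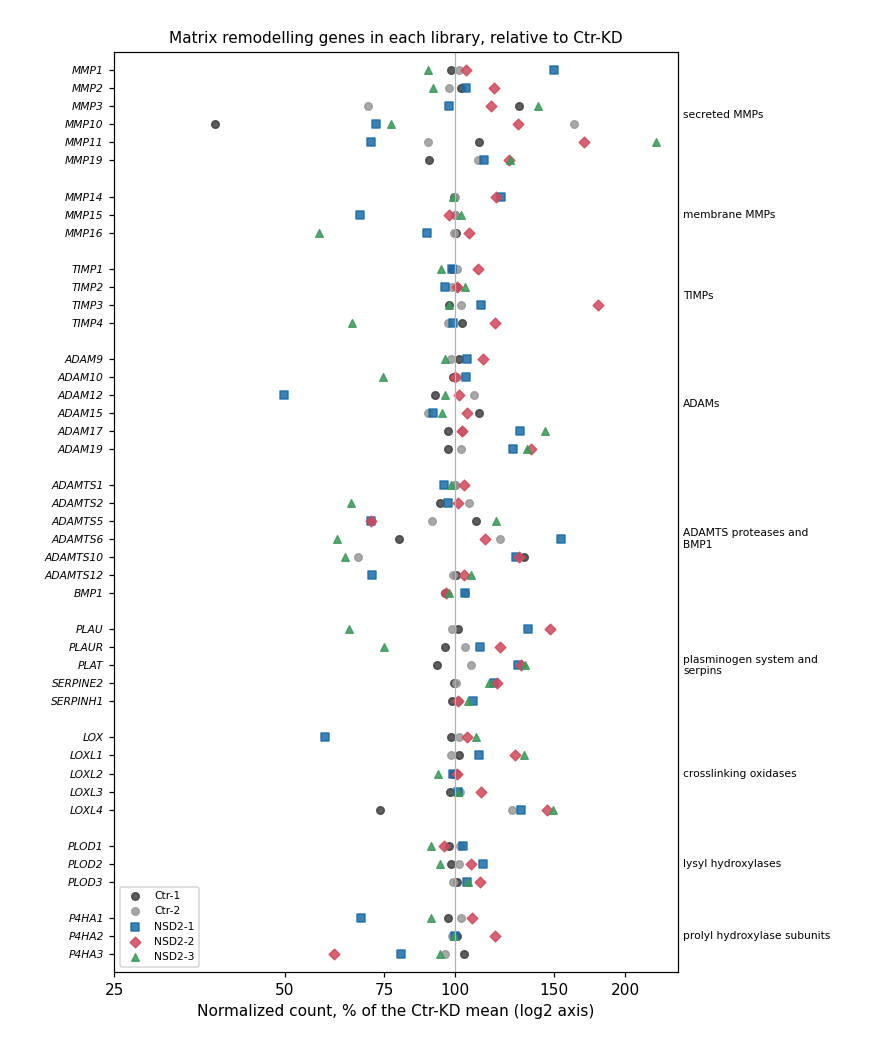
Normalized count of each of the 42 genes in each library, as a percentage of its Ctr-KD mean on a log2 axis. Circles are the Ctr-KD libraries, and the square, diamond and triangle are NSD2-1, NSD2-2 and NSD2-3. ADAM19, PLAT and SERPINE2 have all 3 NSD2-KD symbols close together and right of the circles, whereas PLAU (64.9% with NSD2-3, 147% with NSD2-2) and LOX (59.0% with NSD2-1) have symbols on both sides.

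**Figure D2:**
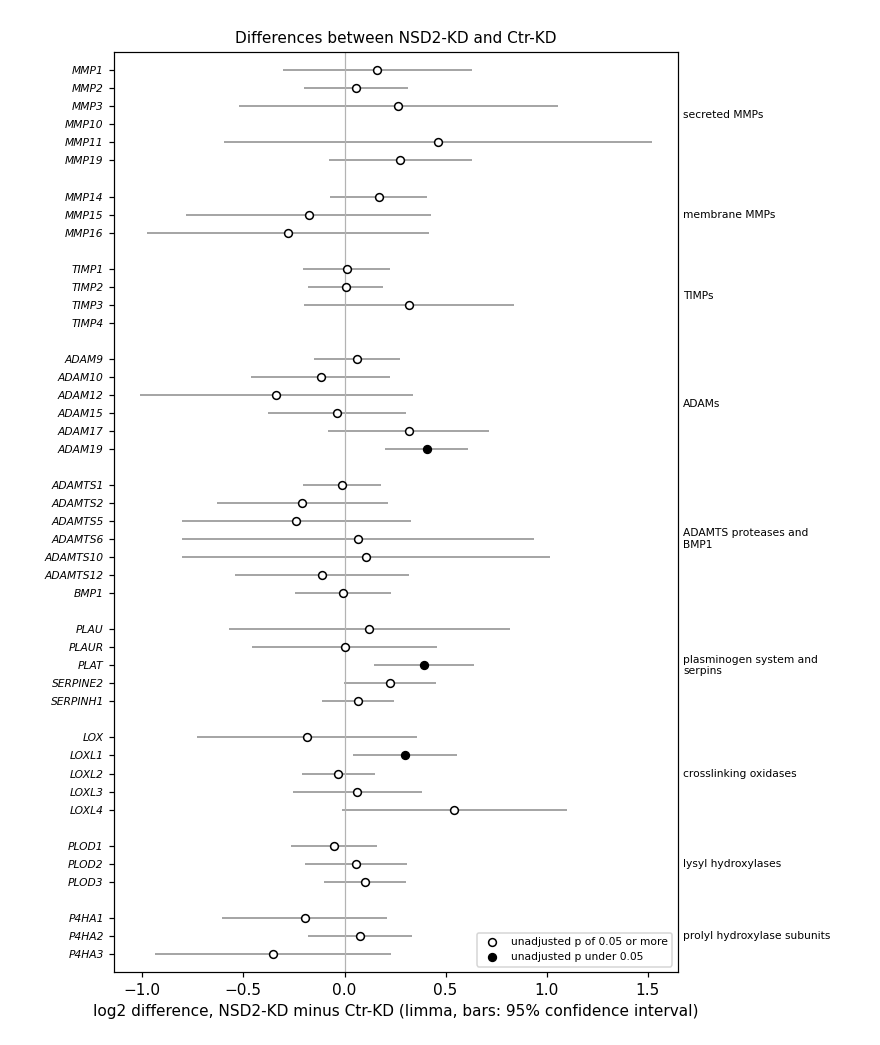
The log2 difference between NSD2-KD and Ctr-KD cells for the 40 tested genes, with its 95% confidence interval from limma. Filled circles mark ADAM19, PLAT and LOXL1, whose intervals lie above 0. MMP10 and TIMP4 were below the filter and have no interval.

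Among the secreted MMPs, MMP2, the gelatinase made in quantity by resting fibroblasts, had normalized counts of 2176 and 2076 in the Ctr-KD libraries and 2223, 2494 and 1945 with NSD2-1, NSD2-2 and NSD2-3. The NSD2-KD values straddled the Ctr-KD ones, and the log2 difference was 0.056 (95% confidence interval from -0.20 to 0.31). MMP1, the interstitial collagenase, had 197 and 204 in the Ctr-KD libraries and 299.98, 209.7 and 179.6 in the NSD2-KD libraries in the same order. It was thus highest with NSD2-1, where it was at 150% of the Ctr-KD mean, and lowest with NSD2-3, and its log2 difference of 0.16 (from -0.31 to 0.63) became -0.046 without the NSD2-1 library. MMP19, a protease of basement membrane components, had 87.6 and 107 in Ctr-KD cells and 109.5, 121 and 122 in NSD2-KD cells. Its groups did not overlap, but the Ctr-KD libraries were farther apart than NSD2-1 was from the nearer of them, and the log2 difference was 0.28 (from -0.079 to 0.63). The 5 tested genes of this group all had positive differences, with a median of 0.27, and no one of them was at an unadjusted p under 0.05 by limma, edgeR or DESeq2. That median is the value of MMP3, a rare transcript, and it was 0.16 over the 3 genes kept at a minimum mean count of 50. The differences of MMP1, MMP2 and MMP3 each changed sign with 1 library left out.

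The other secreted MMPs were rare transcripts. MMP3, stromelysin 1, had 17.1 and 9.26 normalized counts in Ctr-KD cells and 12.9, 15.3 and 18.5 in NSD2-KD cells. MMP11, stromelysin 3, had 11.4 and 9.26 against 7.36, 17.5 and 23.4. For both genes the libraries of the groups overlapped, and the intervals of their log2 differences were wide, from -0.52 to 1.06 for MMP3 and from -0.59 to 1.52 for MMP11. MMP10, stromelysin 2, had 1 and 4 reads in the Ctr-KD libraries and 2, 3 and 2 in the NSD2-KD libraries, close to the floor of 3 reads, and was not tested.

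A binding site for AP-1, the FOS and JUN family of factors, is the classical inducible element of protease promoters. The letters TGANTCA, which read the same in form on both strands, were sought in RefSeq promoter windows on GRCh38.p14, from 250 bases before to 50 bases after a gene's start, and were found in 7.71% of all windows. Windows were at hand for 29 of the 42 genes, and 3 genes held a match. The 7.71% counts windows, whereas the matches are counted by gene, so these numbers are not like for like. Whether the letters were more common in these genes than elsewhere was not tested. Members without a window were not searched, so a gene not named here does not thereby lack the letters. They are shown because the letters stand in genes of unlike level, a near-silent MMP, a receptor and a mid-level ADAMTS. The usual AP-1 consensus has G or C at the open position. Of the 3 matches this holds for PLAUR alone, while MMP10 and ADAMTS12 have A there. The match is in capitals, 5′ to 3′ on the strand of the gene.
MMP10: aaacacatgcaTGAATCAtactgttggtg
PLAUR: tcacaactccaTGAGTCAgggccgagcca
ADAMTS12: acactgtcagcTGAATCActcccctttta
The MMP10 window lies at chr11:102780678-102780706, with the motif starting 67 bases before the gene's start. That of PLAUR lies at chr19:43670338-43670366, with the motif 186 bases before the start, and that of ADAMTS12 at chr5:33892057-33892085, with the motif 84 bases before it. All 3 genes are on the minus strand. Their values did not share a pattern, since MMP10 stayed near the floor, PLAUR was lowest with NSD2-3 and ADAMTS12 was lowest with NSD2-1.

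The membrane-type MMPs were represented almost entirely by MMP14, the collagenase that also activates pro-MMP2 at the cell surface. MMP14 had normalized counts of 2309 and 2319 in Ctr-KD cells and 2795, 2742 and 2293 in NSD2-KD cells. It was above both Ctr-KD libraries with NSD2-1 and NSD2-2 and just below them with NSD2-3, with a log2 difference of 0.17 (from -0.070 to 0.41). MMP15 had 25.7 in both Ctr-KD libraries and 17.5, 25.1 and 26.4 in NSD2-KD cells. MMP16 had 23.8 and 23.7 against 21.2, 25.1 and 13.7. The lowest library was NSD2-1 for MMP15 and NSD2-3 for MMP16, but the counting interval of its ratio to Ctr-KD included 1 for both genes, and the groups overlapped.

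Of the inhibitors of MMPs, TIMP1 and TIMP2 were level and TIMP3 was not. TIMP1, a secreted inhibitor of most soluble MMPs, had 1739.6 and 1775 normalized counts in Ctr-KD cells and 1734, 1935 and 1658 in NSD2-KD cells, with a log2 difference of 0.012 (from -0.20 to 0.23). TIMP2, which also takes part in the activation of MMP2 by MMP14, had 2612 and 2558 against 2486, 2609.6 and 2694, a difference of 0.0059 (from -0.18 to 0.19). The interval of TIMP2 is among the 3 narrowest of the 40 genes, and the groups overlapped for both. TIMP3, which binds to the matrix and inhibits ADAMs as well as MMPs, had 623 and 653 in Ctr-KD cells. It had 709 with NSD2-1, 1144 with NSD2-2 and 623 with NSD2-3. The NSD2-2 library stood apart at 179% of the Ctr-KD mean, with a 95% exact (Clopper-Pearson) interval of the ratio from 1.65 to 1.95 that covers counting error only, and the log2 difference over the 3 libraries was 0.32 (from -0.20 to 0.84). TIMP4, the inhibitor of narrowest tissue range, had 8 and 7 reads in the Ctr-KD libraries and 8, 8 and 5 in the NSD2-KD libraries and was below the filter.

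ADAMs are membrane-anchored proteases that shed growth factors, cytokines and receptors from the cell surface. ADAM19, which lies on chromosome 5 of GRCh37 from 156822542 to 157002783, had the smallest p of all the matrix genes and ranked 87th of all tested genes by p. It had 812 and 857 normalized counts with the control siRNA (mean 834, SD 32.0, n = 2) and 1058, 1139 and 1119.6 with the NSD2 siRNAs (mean 1106, SD 42.3, n = 3). Every NSD2-KD library lay well above both Ctr-KD libraries, by more than the spread within either group, and the 3 siRNAs gave 127%, 137% and 134% of the Ctr-KD mean. The log2 difference was 0.41 (standard error 0.089, 95% interval from 0.20 to 0.61, adjusted p = 0.224 from limma, 0.207 from edgeR and 0.348 from DESeq2), so it did not pass the threshold over all genes. Over all the alternative settings the difference ran from 0.37 to 0.44 and the adjusted p from 0.147 to 1.00, the latter without Ctr-KD replicate 2. Exons of CYFIP2, on the other strand, overlap those of ADAM19. Reads of the 2 genes are not separated there if the libraries did not keep strand or the counting ignored it.

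The other ADAMs did not share this pattern. ADAM17, the tumour necrosis factor converting enzyme, had 103 and 109 normalized counts in Ctr-KD cells and 138, 109 and 153 in NSD2-KD cells. Its NSD2-2 value lay within 1 normalized count of Ctr-2, although it was the higher of the pair. ADAM9 had 2081 and 2017 against 2153, 2303 and 1966, and ADAM15 had 162 and 132 against 134, 154 and 139.6. Both overlapped between the groups. ADAM10, the main sheddase of Notch receptors and cadherins, had 653.5 and 662.5 in Ctr-KD cells and 688, 659.8 and 491 in NSD2-KD cells, so that only the NSD2-3 library was clearly lower, at 74.6% of the Ctr-KD mean. ADAM12, a protease of fibroblasts and fusing muscle cells, was at 100.03 and 117 in Ctr-KD cells and at 54.3, 110.3 and 104 in NSD2-KD cells. Here the NSD2-1 library was the low one, with a ratio to Ctr-KD of 0.501 (95% exact counting interval from 0.369 to 0.671), and the log2 difference of -0.34 had an interval from -1.01 to 0.34.

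ADAMTS proteases are secreted, and they cut proteoglycans or trim procollagen. ADAMTS1, a versican-cleaving protease, was level, with 1621 normalized counts in both Ctr-KD libraries and 1549.6, 1683 and 1594 in NSD2-KD cells, a log2 difference of -0.012 (from -0.20 to 0.18). ADAMTS2 removes the amino-terminal propeptide of procollagen and had 663 and 744 in Ctr-KD cells against 684, 712 and 461 in NSD2-KD cells. BMP1 removes the carboxy-terminal propeptide and had 397 and 431 against 432, 399.8 and 404. BMP1 was thus level, with a log2 difference of -0.0067 (from -0.24 to 0.23), whereas ADAMTS2 was at 65.5% of its Ctr-KD level in the NSD2-3 library and near the Ctr-KD values with the other siRNAs.

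The remaining ADAMTS genes had fewer reads and no common direction. ADAMTS5, an aggrecanase, had 97.2 and 81.3 normalized counts in Ctr-KD cells and 63.5, 63.4 and 105 in NSD2-KD cells. ADAMTS12 had 179 and 177 against 127, 185 and 190.3. The former was lower with NSD2-1 and NSD2-2 but highest of all libraries with NSD2-3, and the latter was lower with NSD2-1 alone. ADAMTS6, which takes part in microfibril turnover, had 23.8 and 36.0 against 46.0, 33.9 and 18.5. ADAMTS10, which binds fibrillin, had 32.4 and 16.5 against 31.3, 31.7 and 15.6. For both, the libraries differed by over 1.5-fold within each group, and the intervals reached from -0.80 to 0.94 and from -0.80 to 1.02.

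The plasminogen system turns plasminogen into plasmin, which degrades fibrin and activates latent MMPs. PLAT, the tissue-type activator, on chromosome 8 from 42032236 to 42065227, had 321 and 368 normalized counts in Ctr-KD cells (mean 345, SD 33.4) and 446, 451 and 458 in NSD2-KD cells (mean 452, SD 5.79). The 3 siRNAs gave nearly the same value, between 129.5% and 133% of the Ctr-KD mean, while the Ctr-KD libraries were farther from each other than the siRNAs were. The log2 difference was 0.39 (standard error 0.11, from 0.15 to 0.64, adjusted p = 0.295 from limma), and it ranged from 0.29 to 0.49 over the alternative settings, the lowest value being that without Ctr-KD replicate 1. No exon of another gene overlaps PLAT in the annotation.

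PLAU, the urokinase-type activator, showed the opposite of this agreement. On chromosome 10 from 75668935 to 75677254, it had 1543 and 1504 normalized counts in Ctr-KD cells and 2054, 2243 and 989 with NSD2-1, NSD2-2 and NSD2-3. The NSD2-1 and NSD2-2 libraries lay far above both Ctr-KD libraries and the NSD2-3 library far below, with ratios to Ctr-KD of 1.35 (95% exact counting interval from 1.28 to 1.42), 1.47 (from 1.39 to 1.56) and 0.649 (from 0.604 to 0.697). The log2 difference over the group was 0.12 (from -0.57 to 0.82), and it was 0.49 without NSD2-KD replicate 3, -0.033 without NSD2-KD replicate 1 and -0.096 without NSD2-KD replicate 2. The smallest adjusted p of any member under any setting, 0.067 from limma, was that of PLAU in a fit to which NSD2-3 did not contribute. PLAUR, the receptor that holds PLAU at the cell surface, had 209 and 226 in Ctr-KD cells and 241, 261 and 163 in NSD2-KD cells. It had the same order of the siRNAs as PLAU at a smaller scale, with a log2 difference of 9.2e-05 (from -0.46 to 0.46).

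SERPINE2, or protease nexin 1, an inhibitor of thrombin, PLAU and PLAT, had 348 and 349.8 normalized counts in Ctr-KD cells (mean 349, SD 1.46) and 409, 414 and 400.2 in NSD2-KD cells (mean 408, SD 7.02). The groups did not overlap, and the log2 difference of 0.23 had an interval from -0.00091 to 0.45 and an adjusted p of 0.547 from limma. SERPINH1 (HSP47), a serpin without inhibitory activity that serves as the collagen chaperone of the endoplasmic reticulum, had 3616 and 3713 against 3947, 3711 and 3863. Its values overlapped, since NSD2-2 lay at the level of Ctr-2, and the difference was 0.067 (from -0.11 to 0.24).

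Lysyl oxidases make the aldehydes from which collagen and elastin crosslinks form. LOX, on chromosome 5 from 121398890 to 121414108, had 2756 and 2845 normalized counts in Ctr-KD cells and 1651, 2948 and 3057 with NSD2-1, NSD2-2 and NSD2-3. Only the NSD2-1 library was low, well under its Ctr-KD level (ratio 0.590, 95% exact counting interval from 0.559 to 0.622), and the other NSD2-KD libraries lay slightly above both Ctr-KD libraries. Without NSD2-KD replicate 1 the log2 difference turned from -0.19 (from -0.73 to 0.36) to 0.10. LOXL2, the family member of highest level per length, had 3435 and 3492 against 3439.6, 3494 and 3238, and LOXL3 had 108 and 112 against 111, 122 and 111. Both were level, with log2 differences of -0.031 (from -0.21 to 0.15) and 0.064 (from -0.25 to 0.38).

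LOXL1, the oxidase tied to elastic fibre assembly, lies on chromosome 15 from 74218330 to 74244478. It had 467 and 453 normalized counts in Ctr-KD cells (mean 459.7, SD 10.00) and 508, 587 and 608 in NSD2-KD cells (mean 568, SD 52.7). All NSD2-KD libraries were above both Ctr-KD libraries, NSD2-1 by the least. The log2 difference was 0.30 (standard error 0.11, from 0.043 to 0.56, adjusted p = 0.454 from limma), and exons of LOXL1-AS1 overlap the gene on the other strand. LOXL4 had the largest positive difference of the 40 members by limma, 0.54 (from -0.015 to 1.10), whereas edgeR and DESeq2 put MMP11 above it. LOXL4 had 34.3 and 58.6 in Ctr-KD cells and 60.7, 67.7 and 69.3 in NSD2-KD cells. The distance between its Ctr-KD libraries was larger than that from Ctr-2 to any NSD2-KD library, and the difference was 0.16 without Ctr-KD replicate 1 and 0.92 without Ctr-KD replicate 2.

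**Figure D3:**
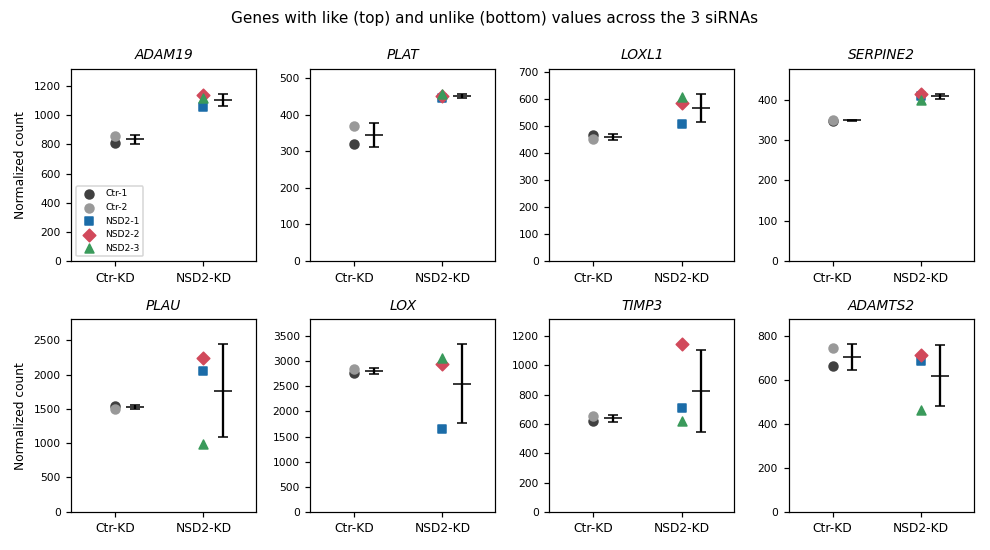
Normalized counts of 8 of the genes in each library, with the mean and SD of each group drawn beside the points (n = 2 and 3). In the upper row the 3 NSD2-KD libraries lie above both Ctr-KD libraries, as for ADAM19 (1058 to 1139 against 812 and 857). In the lower row 1 siRNA stands apart, NSD2-3 for PLAU and ADAMTS2, NSD2-1 for LOX and NSD2-2 for TIMP3.

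Collagen chains are hydroxylated before they fold into the triple helix, on lysine by the PLOD enzymes and on proline by enzymes whose catalytic subunits are P4HA1, P4HA2 and P4HA3. PLOD1 had 1318 and 1379 normalized counts in Ctr-KD cells and 1396, 1291 and 1224 in NSD2-KD cells. PLOD2, which hydroxylates the telopeptides, had 529 and 547 against 603, 575 and 506. PLOD3, which also glycosylates hydroxylysine, had 749.7 and 739 against 782, 826 and 786. The lysyl hydroxylases were even, with log2 differences of -0.050, 0.056 and 0.10 and every interval within 1.5-fold. PLOD3 alone had groups that did not overlap, by 32.4 normalized counts between Ctr-1 and NSD2-1.

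Of the prolyl hydroxylase subunits, P4HA1 had 423 and 446 normalized counts in Ctr-KD cells and 296, 465 and 394 in NSD2-KD cells. It was lowest with NSD2-1, at 68.2% of the Ctr-KD mean, the library in which LOX was also low. P4HA2 had 502 and 492 against 497, 585 and 496 and was level apart from NSD2-2. P4HA3 had 33.3 and 30.9 against 25.8, 19.7 and 30.3. It was the single tested member below both Ctr-KD libraries with every siRNA, but NSD2-3 missed Ctr-2 by under 1 normalized count and the log2 difference of -0.36 had an interval from -0.94 to 0.23.

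Levels can be set side by side between genes only per length, here as normalized counts per kilobase of annotated exon in Ctr-KD cells. TIMP1 led with 1215, followed by SERPINH1 (583), LOXL2 (579), PLAU (517), MMP14 (501), LOX (500.4), MMP2 (452) and TIMP2 (416). The neighbours SERPINH1 and LOXL2, and likewise MMP14 and LOX, did not differ beyond the spread of the Ctr-KD libraries. Of the 10 genes with the highest level per kilobase, 9 were also among the 10 highest with the length of the longest transcript. Their order depended on the length used, since with that length TIMP2 had 708, MMP2 605 and MMP14 601. The shares that follow rest on annotated exon. MMP14 and MMP2 made up 47.0% and 42.4% of the summed level per kilobase of the 9 MMPs in Ctr-KD cells, MMP1 made up 6.87% and the other MMPs 1.96% (MMP19) or less. In NSD2-KD cells the shares were 48.4%, 40.5% and 7.20%. TIMP1 accounted for 68.4% of the summed level per kilobase of the TIMPs in Ctr-KD cells and 67.0% in NSD2-KD cells.

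**Figure D4:**
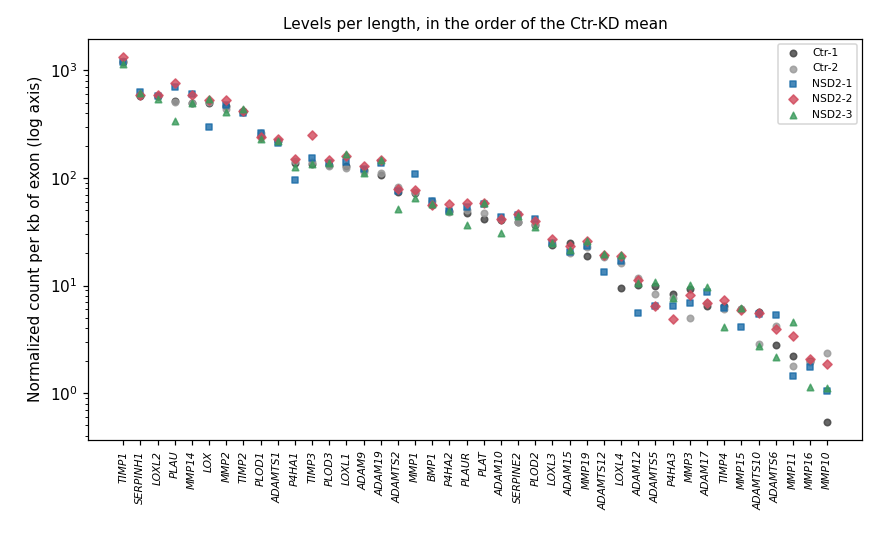
Normalized count per kilobase of exon (log axis) of the 42 genes, in the order of the Ctr-KD mean, with 1 symbol for each library. The levels span from 1215 for TIMP1 to 1.44 for MMP10 in Ctr-KD cells, and the libraries of most genes lie close together, with wider scatter for PLAU, LOX, TIMP3 and ADAM12 and at the low end.

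The siRNAs differed from one another more than the Ctr-KD libraries did. The highest NSD2-KD library was on median 1.25 times the lowest over the 40 members, against 1.04 for the Ctr-KD libraries (1.31 and 1.10 over all tested genes), and 15 members (37.5%, against 30.1% of all tested genes) had over 1.5-fold between siRNAs. A range over 3 libraries exceeds one over 2 even at equal spread, so these medians are not like for like. Pair by pair, over genes at large, the chi-square per degree of freedom was 5.05 to 5.29 between NSD2-KD libraries and 1.05 between Ctr-KD libraries. When each NSD2-KD library was set against the 2 Ctr-KD libraries with a 95% exact counting interval of the ratio, the interval lay above 1 for 11 members with NSD2-1 (27.5%, against 11.4% of all tested genes) and below 1 for 5 (12.5%, against 12.9%). With NSD2-2 it lay above 1 for 15 (37.5%, against 13.4%) and below for 1 (2.5%, against 14.2%), and with NSD2-3 above for 9 (22.5%, against 11.3%) and below for 7 (17.5%, against 12.1%). Between the Ctr-KD libraries it left out 1 for 3 members (7.5%, against 4.54%). These intervals compare libraries, not conditions, and they are narrower for the members than for most genes, because 20 of the 40 are in the 10% of tested genes with the highest mean count. The interval lay above 1 with all 3 siRNAs for ADAM19, PLAT and SERPINE2, and 4 members, MMP2, PLAU, PLAUR and LOX, had intervals above 1 with at least 1 siRNA and below 1 with another.

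Members that are usually counted in the SASP (MMP1, MMP3, MMP10, TIMP1, TIMP2, PLAU, PLAUR and PLAT) had 7 of 8 tested and 0 called by limma, edgeR or DESeq2. The median log2 difference was 0.12, and all 7 differences were positive, although those of TIMP1, TIMP2 and PLAUR were at most 0.012. At an unadjusted p under 0.05 limma gave PLAT only. The median of the list over its tested members was 0.15 with NSD2-1, 0.26 with NSD2-2 and -0.083 with NSD2-3, so that its side of 0 differed between siRNAs. Members usually listed as targets of hypoxia-inducible factor (P4HA1, P4HA2, PLOD1, PLOD2, LOX and LOXL2) had a median of -0.041, with 2 positive and 4 negative differences, 0 at an unadjusted p under 0.05 and 0 called by limma, edgeR or DESeq2.

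Beyond these genes, a wider list of 71 other matrix proteases, inhibitors and collagen-processing genes had 41 members above the filter. By limma, edgeR and DESeq2, 0 of the 41 were called, and at an unadjusted p under 0.05 each of the 3 tools gave 1. Among all tested genes, limma had 4.19% higher and 4.99% lower at this level. The tested genes named next, RECK, CTSD, CTSL, COLGALT2 and TGM2, were not at this level with any of the tools. RECK, a membrane-anchored inhibitor of MMPs, had 216 and 218 against 219.9, 317 and 344, and its log2 difference of 0.41 had an adjusted p of 0.568 from limma. The lysosomal proteases CTSD (934 and 938 against 1125, 1043 and 1017) and CTSL (256 and 276 against 325, 316 and 282) were above both Ctr-KD libraries with each siRNA, with log2 differences of 0.18 and 0.21. So was RECK, and of the 41 genes 4 lay above both Ctr-KD libraries in this way and 2 below both. Among all tested genes 13.8% lay above and 13.9% below, and whether the wider list differs from these shares was not tested. COLGALT2, a collagen galactosyltransferase, had 31.4 and 37.04 against 16.6, 15.3 and 35.1, and TGM2, a transglutaminase that crosslinks matrix proteins, had 335 and 324 against 330.3, 382 and 437. Their groups overlapped. The median log2 difference of the 41 genes was 0.011, with 23 positive and 18 negative. MMP7, MMP8, MMP9, MMP12 and MMP13 had at most 1 read in any library, so a level below the floor of 3 reads was not detectable.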

How the data were processed

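Libraries were grouped by their labels. According to the methods of the study, trimmed reads were aligned to hg19 by HISAT2, SAMtools left those with a unique position, and featureCounts assigned them to genes. The annotation and strand setting are not given in the sources used here. The deposited signal is a count per gene scaled by DESeq2's size factors, from which reads could be recovered (100% of values came out whole, tolerance 0.01 reads). A second deposited table holds the authors' own comparison (fold changes, Wald statistics, p-values) and was not used.

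The main test was limma 3.58.1 with trend, two-sided, on log2 of the deposited signal plus 1, for genes averaging at least 10, with a threshold of 0.05. The log scale with this pseudocount shrinks the differences of rare transcripts. P-values measure the spread between these libraries, which the methods of the study call biological replicates. In NSD2-KD cells that spread includes the difference between siRNAs. The limma fit assumes equal spread of a gene in both groups. The Ctr-KD libraries differed far less (chi-square per degree of freedom 1.05, against 5.05 to 5.29 between NSD2-KD libraries). edgeR 4.0.16 (quasi-likelihood, TMM) and DESeq2 1.42.0 were run on the recovered reads, and an adjusted p that DESeq2 gave as NA (2 members) stayed NA. The limma and edgeR fits, but not DESeq2, were tested on simulated data in which 200 genes were changed 4-fold. That test does not measure how well smaller differences, such as those of the members, are found. Exact intervals cover counting error only. Alternatives were other pseudocounts, filters and normalization, no trend, the replicate number as a block and each library left out.

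Positions and exon lengths came from GENCODE v44 lifted to GRCh37, the assembly of hg19, where all 42 symbols matched. Exons of another gene overlap 23 of the 42 genes, whose counts are uncertain if the libraries or the counting ignored strand. For MMP2, TIMP2, ADAM15, BMP1 and LOXL2 an overlapping gene is on the same strand, so their counts are uncertain in either case. The genes, lists and groups were chosen with earlier results of these data known. All 42 genes are named, with the genes of the wider list that had the 6 smallest p, of which 1 is not reported here. The MMPs at or near 0 and the 8 genes plotted singly were chosen after their values were seen.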

Additional observations from a re-analysis of the deposited data

How the results depend on the processing

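With 2 against 3 libraries, differences of members with few reads had wide intervals. No member and no gene of the wider list was called under any of the 14 alternatives. The number of genes called among all tested (10) was 54 with DESeq2 (11 higher, 43 lower), 16 with edgeR, 1 without limma's trend and 0 to 30 with a library left out. With a single Ctr-KD library left, that library is assumed to vary like the others, and 0 genes were called. The replicate number as a block gave 102 genes, but that fit drops NSD2-3, which has no Ctr-KD partner. The deviations of same-numbered libraries from their group means had correlations of -0.015 and -0.027. The Ctr-KD libraries differed by little more than counting noise, so these correlations cannot decide whether the number is a pairing. In NSD2-KD cells it is the number of the siRNA. Members at an unadjusted p under 0.05 (3) were 6 with the replicate block and 1 to 6 with a library left out. The cause of these shifts was not tested.

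Of 553 recomputed member differences, 516 kept their direction and 37 did not, over 18 members, all of them uncalled. TIMP1 was -0.044, TIMP2 -0.033 and PLAUR -0.0020 with quantile normalization, and TIMP2 was -5.1e-05 with edgeR. With the block, TIMP2 was -0.021, ADAM10 0.034, BMP1 0.0069 and LOXL2 0.0015. With a library left out the differences ran from -0.046 to 0.32 for MMP1, -0.031 to 0.15 for MMP2, -0.15 to 0.68 for MMP3, -0.28 to 0.00064 for MMP15, -0.051 to 0.060 for TIMP1, -0.021 to 0.037 for TIMP2, -0.21 to 0.034 for ADAM10, -0.18 to 0.11 for ADAM15, -0.045 to 0.015 for ADAMTS1, -0.22 to 0.42 for ADAMTS6, -0.36 to 0.57 for ADAMTS10, -0.22 to 0.074 for ADAMTS12, -0.066 to 0.052 for BMP1, -0.096 to 0.49 for PLAU, -0.13 to 0.21 for PLAUR, -0.34 to 0.10 for LOX, -0.054 to 0.0015 for LOXL2 and -0.0014 to 0.12 for P4HA2.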
